A study of Homo sapiens with 12 samples.

Results

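Cystathionine beta-synthase (CBS) and 8 further enzymes that carry methionine through homocysteine to cysteine and sulfide are described here across 12 RNA-seq libraries of A549 cells. The 9 genes were chosen by name (CBS, CTH, MAT2A, MAT2B, AHCY, AHCYL1, MTR, MTRR and MPST), from the 19647 genes of the table, and are covered by 38 of its 82270 Ensembl transcripts. A549 is a human non-small cell lung cancer line, and the title of the series names ferroptosis, a death of cells through iron and lipid peroxides, and the metabolism of glutathione. The libraries form 4 groups of 3, and no treatment was given in any of them. They are A549 cells overexpressing NR0B1, a nuclear receptor without a known ligand that mostly represses transcription, and the wild-type control of that overexpression, and A549 cells in which a short hairpin RNA targets NR0B1 (the knockdown) and the wild-type control of that knockdown. The titles name the knockdown controls shNC, which reads as a control hairpin, and the overexpression controls OEC, while the genotypes of both say wild type. The labels give neither the vector, the hairpin sequences nor the number of clones. They also do not say whether replicates were separate cultures, so p-values measure only the spread between these samples, which may be technical.

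Methionine is activated to S-adenosylmethionine (SAM), the methyl donor of most methylation reactions, and the spent donor is hydrolysed to homocysteine. Homocysteine is either methylated back to methionine or condensed with serine by CBS, which commits its sulfur to cysteine in the transsulfuration pathway. Cysteine is a building block of glutathione, and cells with an active transsulfuration pathway can make part of it without taking up cystine.

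Levels are given as CPM, expected counts summed over the Ensembl transcripts of a gene and scaled to library size (TMM), or as FPKM, which is also scaled to transcript length and allows genes to be compared. Libraries held between 15049011 and 22797076 expected counts. Means carry the SD of 3 libraries (n = 3 per group throughout). A gene is called changed at a p below 0.05 in edgeR's quasi-likelihood test after adjustment by Benjamini and Hochberg's method over 11908 tested genes. The standard error (SE) beside a log2 fold change is approximate. All 9 genes had at least 1 FPKM in all 12 libraries, so none entered the test through 1 group alone.

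NR0B1 was read in every library as a check of the labels. It stood at 98.9, 81.8 and 84.1 CPM with overexpression, against 17.9, 60.1 and 55.2 CPM in the overexpression control, and at 2.99, 3.31 and 5.84 CPM in the knockdown, against 16.3, 21.1 and 13.3 CPM in the knockdown control. Neither pair of groups overlapped, but only the knockdown passed the test (adjusted p = 0.00593, against 0.0912 for overexpression, edgeR). Without overexpression control replicate 1 the log2 fold change with overexpression was 0.62 (adjusted p = 0.106), against 0.99 with it. Overexpression control replicate 1 and knockdown replicate 2 stood apart from their groups, with mean correlations to the other libraries of the group of 0.951 and 0.927, against 0.967 or more and 0.943 or more for the other libraries of those groups. Of the markers fixed for the cell type, the 5 epithelial genes summed to 2896 to 3766 FPKM with overexpression, 3073 to 3278 in its control, 2185 to 4113 in the knockdown and 4130 to 4551 in its control. KRT8, KRT18 and KRT7 made up most of these sums, each at 546.9 FPKM or more in every library. CDH1 ran from 23.69 to 71.76 FPKM, and EPCAM was low, at 0.23 to 2.6 FPKM. The alveolar type II markers SFTPB, SFTPC, SFTPA1 and NKX2-1 were each under 0.5 FPKM in all libraries. Of the 4 fibroblast markers, DCN, PDGFRB and COL1A2 were also under 0.5 FPKM in all libraries, and the 4 summed to 0.32 to 0.55 FPKM with overexpression, 0.09 to 0.22 in its control, 0.45 to 0.77 in the knockdown and 0.12 to 0.34 in its control. Endothelial markers and the leukocyte markers PTPRC, CD3E and LYZ were likewise near 0, while CD68 put the leukocyte sum at 42.3 to 57.9 FPKM with overexpression, 44.7 to 57.1 in its control, 18.5 to 59.7 in the knockdown and 15.1 to 22.8 in its control. The part of these shifts in the results below was not tested.

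CBS was the member that differed in every comparison made. It was 1.75-fold higher with overexpression than in its control and 2.59-fold lower in the knockdown than in its control. Alongside it, the sulfurtransferase MPST and the hydrolase-like protein AHCYL1 were lower with overexpression. In all, 3 of 9 members were called with overexpression, 1 higher and 2 lower, where 18.1% of all genes tested were called. In the knockdown 1 of 9 was called, lower, where 23.9% of all genes were called. The members' median log2 fold change was -0.14 with overexpression, against -0.03 over all genes tested, and -0.02 in the knockdown, against 0.03 over all genes. With 9 genes such shares say little, and the account below rests on single genes. In bulk RNA, fewer cells that carry a transcript and less of it per cell cannot be told apart.

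**Figure D1:**
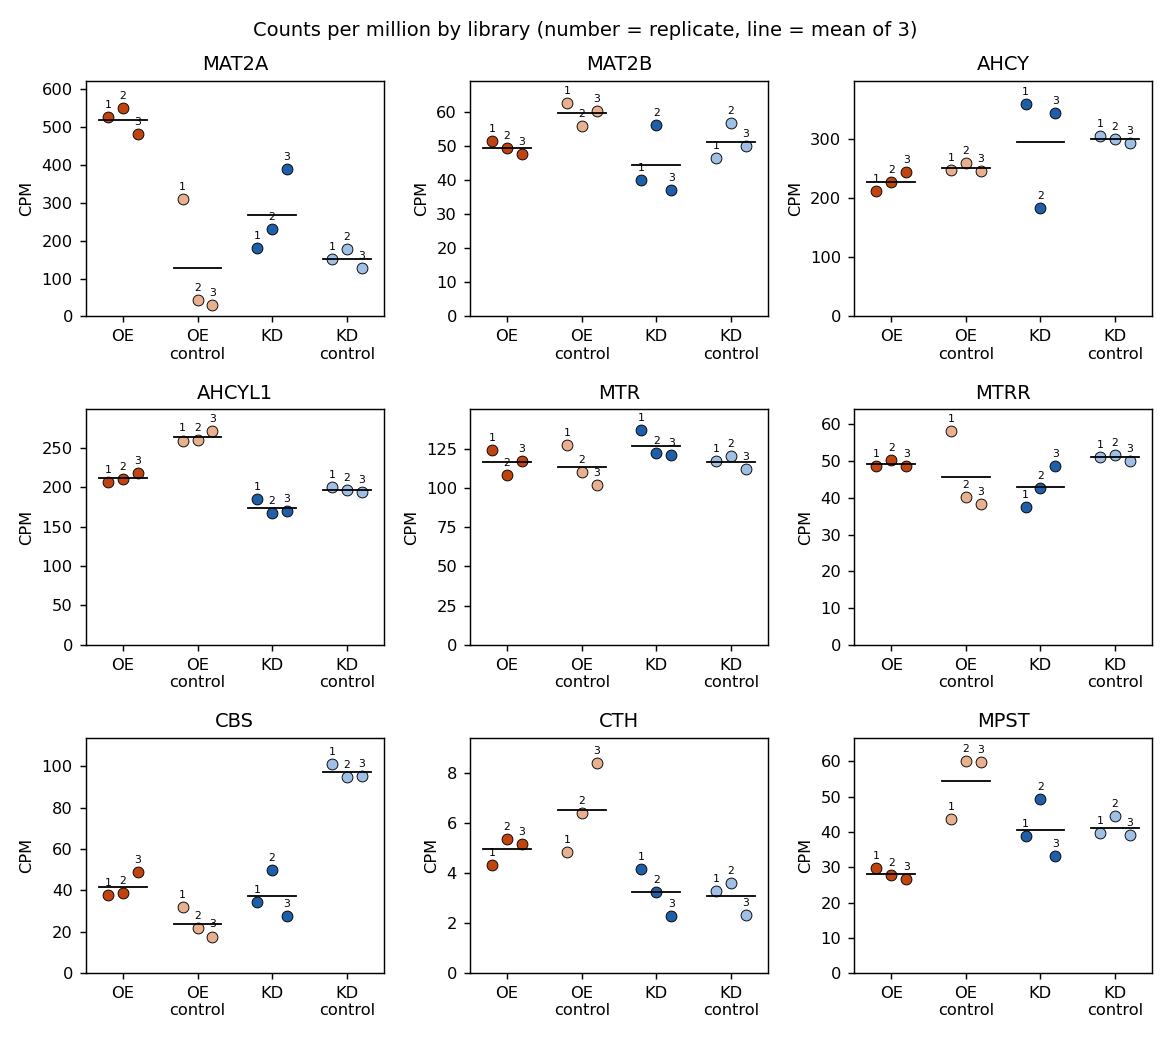
CPM of the 9 enzymes in each of the 12 libraries (OE, NR0B1 overexpression; KD, NR0B1 knockdown), each point 1 library numbered by replicate and each line the mean of 3. CBS stands between 94.9 and 101 CPM in the 3 knockdown controls and at 50.1 CPM or less in the other 9 libraries, and MAT2A runs from 29.2 CPM in an overexpression control to 550 CPM with overexpression.

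Per length and by group mean, AHCY, AHCYL1 and MAT2A filled the first 3 places in every group, though for MAT2A in the overexpression control this rests on 1 library, and CTH was last in all of them at 1.64 to 3.29 FPKM. MAT2A led with overexpression at 149 ± 9.64 FPKM, ahead of AHCY at 86.0 ± 6.47 FPKM, and its libraries did not overlap with those of AHCY there. In the overexpression control MAT2A averaged 35.8 ± 44.0 FPKM, from 86.55 FPKM in replicate 1 and 12.36 and 8.55 FPKM in replicates 2 and 3, so that its libraries lay on both sides of all those of AHCYL1, MPST and MAT2B. Without replicate 1 it had rank 5 there, after MPST and MAT2B. In the knockdown and its control AHCY led at 113 ± 36.8 and 117 ± 3.0 FPKM. CBS had rank 6 with overexpression at 13.3 ± 1.94 FPKM, overlapping with MTRR, and rank 8 in the overexpression control at 7.62 ± 2.1 FPKM. It had rank 6 in the knockdown at 12.2 ± 3.72 FPKM, overlapping with MAT2B and MTR, and rank 4 in the knockdown control at 32.4 ± 0.799 FPKM, apart from both AHCYL1 above and MPST below it. Across the 12 libraries the highest value exceeded the lowest by 18.5-fold for MAT2A, 5.68-fold for CBS and 3.79-fold for CTH, and by at most 2.26-fold for the other 6 genes.

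CBS (ENSG00000160200) lies on the minus strand at chr21:43053191-43076943 (GRCh38, GENCODE 29) and encodes the enzyme that condenses homocysteine with serine to cystathionine. Of its 17 annotated transcripts the table holds 8, and ENST00000398165 held 92.69% of the CBS counts over all libraries, between 88.43% and 96.68% in each. ENST00000359624 held 5.34%, and its share ran from 0% to 11.13% with no group set apart. The 2 transcripts start at different places, and the sequence before each start is shown because nearly all of the CBS signal belongs to ENST00000398165, which has the downstream start. Both windows come from RefSeq (GRCh38.p14), minus strand, and end 30 bases past the start. In the first, chr21:43076333-43076627, capitals mark the match, on the opposite strand, to TGACNNNGC, the core of the antioxidant response element bound by NRF2. In the second, chr21:43075916-43076085, capitals mark the first 10 transcribed bases of ENST00000398165.
CBS upstream window, start of ENST00000359624: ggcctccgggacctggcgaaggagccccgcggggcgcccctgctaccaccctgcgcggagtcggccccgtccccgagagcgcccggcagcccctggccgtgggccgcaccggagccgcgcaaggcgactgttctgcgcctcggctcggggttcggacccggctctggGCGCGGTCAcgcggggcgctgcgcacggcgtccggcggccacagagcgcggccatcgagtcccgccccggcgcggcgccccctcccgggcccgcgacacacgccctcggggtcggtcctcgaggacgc
CBS downstream window, start of ENST00000398165: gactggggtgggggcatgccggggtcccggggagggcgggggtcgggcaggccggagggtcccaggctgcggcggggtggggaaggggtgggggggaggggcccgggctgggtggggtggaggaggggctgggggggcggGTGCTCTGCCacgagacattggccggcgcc

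G and C made up 81.1% of the bases before the upstream start and 82.9% of those before the downstream start. The upstream stretch of 265 bases holds 44 CpG pairs and the downstream one of 140 bases holds 9. Promoters of the members were searched on both strands for 4 motifs in RefSeq windows of 250 bases before and 50 after each start, and 7 of the 9 genes matched an entry. TGACNNNGC was present for AHCYL1 and, in the upstream window only, for CBS, and 13.35% of all 35116 promoters hold it. The CBS window at the start of ENST00000398165 held none of the 4 motifs. Shares here are per promoter window, while several of the 7 genes have multiple windows, so counts of genes cannot be set against them directly. TGANTCA, a loose form of the AP-1 site with any base in the middle, matched for AHCY as TGAATCA (7.71% of all promoters hold the loose form). AAGGTCA, a nuclear receptor half-site with its extension, was present for MAT2B (3.92%). TGATGNAAT, the C/EBP-ATF composite element, had no match in these windows for the 7 genes, and 0.99% of all promoters hold it. These are matches of letters, and no binding was measured.

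With overexpression CBS was at 38.0, 38.8 and 48.8 CPM, against 32.1, 22.0 and 17.8 CPM in its control. The lowest overexpression library lay above the highest control library, so the groups did not overlap, as was the case for 43.5% of all genes tested and for 6 of the 9 members. CBS averaged 41.9 ± 6.0 CPM with overexpression and 24.0 ± 7.37 CPM in its control, which differ by 0.80 in log2 (SE 0.24, adjusted p = 0.0394, edgeR). Control replicate 1 was the highest of its group, and without it the log2 fold change was 1.07 (adjusted p = 0.00952). The call ended when any one of 8 other libraries was left out, namely overexpression replicates 1, 2 and 3 (adjusted p = 0.0678, 0.0718 and 0.122), control replicates 2 and 3 (0.121 and 0.131) and knockdown control replicates 1, 2 and 3 (0.0522, 0.0523 and 0.0509, edgeR).

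In the knockdown CBS was at 34.3, 50.1 and 27.9 CPM, against 101, 94.9 and 95.2 CPM in its control. All control libraries lay far above the highest knockdown library, which was replicate 2. The mean fell to 37.4 ± 11.4 CPM in the knockdown, against 97.0 ± 3.34 CPM in its control (log2 fold change -1.37, SE 0.24, adjusted p = 0.00264, edgeR). Without knockdown replicate 2 the log2 fold change was -1.64 (adjusted p = 0.000729), and the call held in all 22 alternatives, at -1.64 to -1.20. The responses of the arms were of opposite sign and differed by 2.18 on the log2 scale (SE 0.34, adjusted p = 0.00143, edgeR), where 25.6% of all genes had a called difference of the arms. Of the 9 members 2 had one, CBS above 0 and MPST below it, where 13.1% of all genes were above 0 and 12.6% below. That difference held in all 21 alternatives in which it could be fitted, at 2.0 to 2.71.

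The control groups were not at the same CBS level, which bears on how the arms can be set side by side. The overexpression control had 4.05-fold less CBS than the knockdown control, a log2 fold change of -2.02 (SE 0.24, adjusted p = 0.000389, edgeR), larger than either arm's own change. With overexpression CBS ran from 38.0 to 48.8 CPM, which is inside the 27.9 to 50.1 CPM seen in the knockdown. NR0B1 averaged 44.4 ± 23.1 CPM in the overexpression control and 16.9 ± 3.95 CPM in the knockdown control, but overexpression control replicate 1, at 17.9 CPM, lay among the knockdown controls at 13.3 to 21.1 CPM. That log2 fold change of 1.40 was called (adjusted p = 0.0189), and was 1.77 without overexpression control replicate 1 (0.000912). The call ended without overexpression control replicate 2 or 3 or knockdown control replicate 1 or 3, with adjusted p up to 0.0782 (edgeR). What sets the controls apart was not tested.

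By transcript, ENST00000398165 stood at 10.74, 11.02 and 13.78 FPKM with overexpression, against 9.31, 6.10 and 5.07 FPKM in its control. It stood at 9.67, 15.05 and 7.70 FPKM in the knockdown, against 30.43, 28.09 and 29.13 FPKM in its control. Groups did not overlap in either arm, and the pattern was that of the gene sum. In a fit over 27116 transcripts it was called in the knockdown (log2 fold change -1.39, SE 0.27, adjusted p = 0.0171, where 6.38% of transcripts were called) but not with overexpression (0.76, SE 0.27, adjusted p = 0.135, where 4.91% were called, edgeR). ENST00000359624 was listed at 0 in overexpression replicate 1 and in overexpression control replicates 1 and 3, and was between 0.85 and 2.26 FPKM in the other 9 libraries. Its log2 fold changes of 1.29 (SE 1.63) and -0.70 (SE 1.59) had errors larger than the values themselves. Of the remaining 6 transcripts, ENST00000430013 and ENST00000441030 were listed at 0 in every library, and the other 4 held at most 0.86% of the CBS counts each over the 12 libraries together. That share was of ENST00000352178, which reached 8.05% in overexpression replicate 1 and 4.94% in overexpression control replicate 3.

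**Figure D2:**
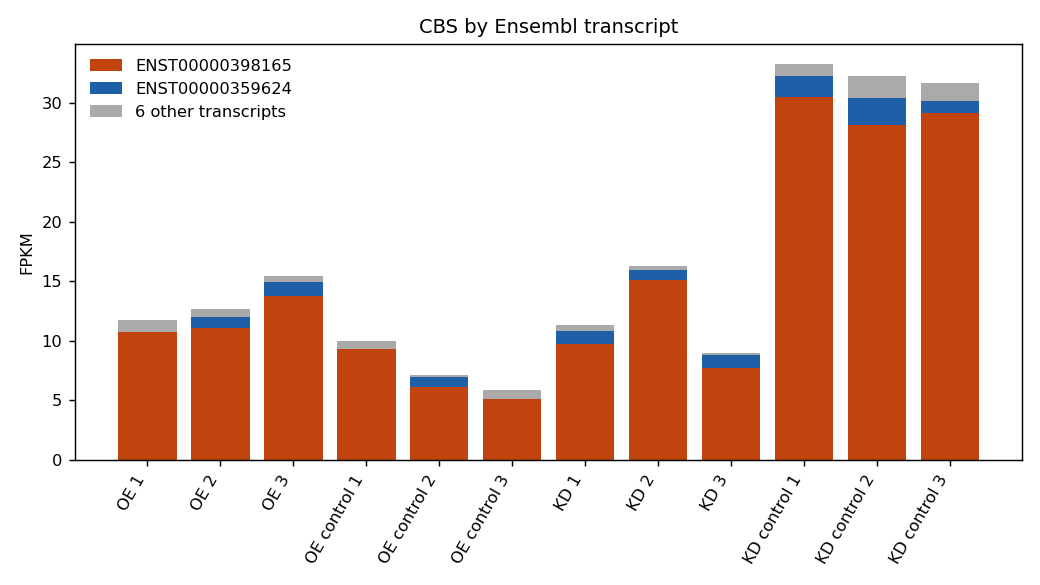
FPKM of CBS in each of the 12 libraries, stacked by Ensembl transcript (OE, NR0B1 overexpression; KD, NR0B1 knockdown; numbers are replicates). ENST00000398165 makes up most of every bar, from 5.07 FPKM in overexpression control replicate 3 to 30.43 FPKM in knockdown control replicate 1.

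The annotation also holds a near-identical copy of CBS, CBSL at chr21:6444869-6468040, which makes the split of reads uncertain. Of the 2575 stretches of 31 bases in ENST00000398165, 95.34% also occur in CBSL transcripts. The table credits CBSL with 0.426, 0 and 1.02 CPM with overexpression, 0 CPM in all libraries of its control and of the knockdown, and 0, 0.771 and 0 CPM in the knockdown control, too little to be tested. Reads of the shared stretches could be credited to either annotation. Whether any come from a separate CBSL locus was not tested.

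CTH (chr1:70411218-70439851, plus strand) encodes cystathionine gamma-lyase, which completes the pathway by cleaving cystathionine to cysteine. With overexpression it was at 4.33, 5.36 and 5.17 CPM, against 4.83, 6.39 and 8.39 CPM in its control. In the knockdown it was at 4.18, 3.25 and 2.28 CPM, against 3.29, 3.62 and 2.31 CPM in its control. The groups overlapped in both arms, and neither difference passed (log2 fold changes -0.40, SE 0.30, adjusted p = 0.375, and 0.08, SE 0.31, adjusted p = 0.876, edgeR). Between the controls CTH was 2.13-fold higher in the overexpression control (adjusted p = 0.0191), opposite in sign to CBS, though this call ended without overexpression control replicate 3 (0.0779) or knockdown control replicates 1 and 3 (0.05 and 0.0788). Between the controls 3 of the 9 members were called, CTH and AHCYL1 higher and CBS lower in the overexpression control, where 33.4% of all genes were called, 17.2% higher and 16.1% lower, so the members' share was near that of all genes. The control groups did not overlap for 4 of the 9 members and for 54% of all genes.

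MPST (chr22:37019635-37029822, plus strand) encodes mercaptopyruvate sulfurtransferase, which takes sulfur from a breakdown product of cysteine and yields sulfide. With overexpression it was at 29.8, 27.8 and 26.7 CPM, against 43.8, 60 and 59.9 CPM in its control. All overexpression libraries lay below all control libraries, and control replicate 1 was the nearest to them. MPST fell 1.94-fold to 28.1 ± 1.58 CPM with overexpression, against 54.6 ± 9.37 CPM in its control (log2 fold change -0.96, SE 0.17, adjusted p = 0.00486, edgeR), and by 1.09 on the log2 scale without control replicate 1. In the knockdown it was at 38.8, 49.4 and 33.2 CPM, against 39.6, 44.6 and 39.1 CPM in its control, with overlapping groups (log2 fold change -0.02, SE 0.16, adjusted p = 0.929). The arms differed by -0.93 on the log2 scale (SE 0.23, adjusted p = 0.0141, edgeR). Its main transcript ENST00000429360, with 68.88% of the counts, was at 10.01, 11.94 and 9.33 FPKM with overexpression, against 19.21, 26.77 and 27.99 FPKM in its control (log2 fold change -1.27, SE 0.22, adjusted p = 0.0137). It and ENST00000398165 of CBS were the 2 members' transcripts with a called difference of the arms, where 7.98% of all transcripts had one.

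Exons of MPST overlap those of TST on the opposite strand, which encodes the sulfurtransferase rhodanese. TST moved with MPST in the overexpression arm, at 22.4, 14.7 and 18.6 CPM with overexpression, against 39.3, 31.5 and 28.9 CPM in its control (log2 fold change -0.84, SE 0.18, adjusted p = 0.0108). In the knockdown, where MPST was not called, TST rose 1.71-fold, to 26.6, 28.3 and 23.7 CPM, against 15, 17.1 and 13.9 CPM in its control (adjusted p = 0.0105, edgeR). Whether counting used strand is not given in the sources used here, and the part of shared reads in either value was not tested.

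MAT2A (chr2:85539165-85545280, plus strand) encodes the catalytic subunit of the enzyme that makes SAM from methionine and ATP. It stood at 528, 550 and 482 CPM with overexpression, against 311, 42.4 and 29.2 CPM in its control. The groups did not overlap, but control replicate 1 stood far above the other 2 controls. The means of 520 ± 34.9 and 127 ± 159 CPM differed by 2.03 on the log2 scale (SE 0.73, adjusted p = 0.075, edgeR), which missed the threshold. Without control replicate 1 the log2 fold change was 3.86 (adjusted p = 0.000237), and with all 12 libraries limma on log2(FPKM + 1) and DESeq2 gave adjusted p-values of 0.019 and 0.0382.

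In the knockdown MAT2A was at 181, 231 and 389 CPM, against 153, 178 and 128 CPM in its control. The lowest knockdown library was just above the highest control library. The log2 fold change of 0.80 (SE 0.70) did not pass the test (adjusted p = 0.435, edgeR), and it passed at the same value when overexpression control replicate 1 was left out of the shared estimate of spread (adjusted p = 0.041). The arms differed by 1.23 (SE 0.99, adjusted p = 0.389), and by 3.05 (adjusted p = 0.000665) without that library. Exons of GGCX, which encodes the vitamin K-dependent carboxylase, overlap MAT2A on the opposite strand, at 5.85 to 13.84 FPKM over the 12 libraries.

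A further row of the table carries the symbol MAT2A but no Ensembl identifier, being a transcript the authors assembled from the reads. It stood at 64.40, 62.74 and 59.86 FPKM with overexpression, against 39.29, 47.13 and 44.63 FPKM in its control. In the knockdown it stood at 76.76, 44.57 and 71.93 FPKM, against 37.22, 38.08 and 29.17 FPKM in its control. Neither pair of groups overlapped, and overexpression control replicate 1 did not stand apart in it. The assembled transcript took 34.76%, 33.04% and 34.92% of all MAT2A counts with overexpression, against 36.18%, 82.68% and 87.0% in its control, and 64.42%, 44.86% and 44.36% in the knockdown, against 50.34%, 46.98% and 48.94% in its control. Overexpression control replicates 2 and 3 were thus low in the annotated transcript and not in the assembled one.

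**Figure D3:**
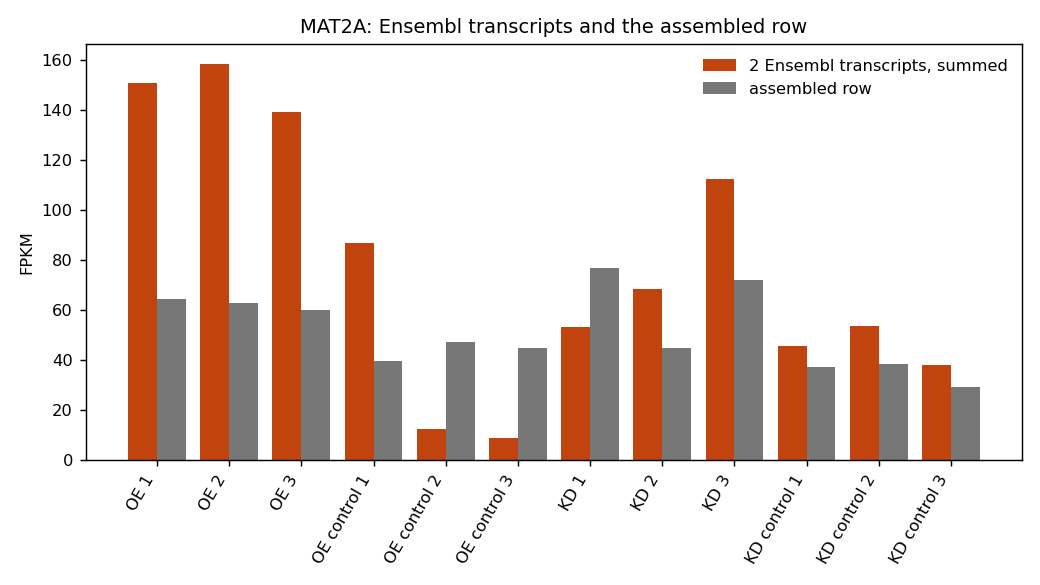
FPKM of MAT2A in each of the 12 libraries, for the sum of its 2 Ensembl transcripts and for the transcript assembled by the authors (OE, NR0B1 overexpression; KD, NR0B1 knockdown; numbers are replicates). The assembled transcript stays between 29.17 and 76.76 FPKM, while the Ensembl sum drops to 8.55 FPKM in overexpression control replicate 3.

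With both kinds of transcript summed, MAT2A stood at 691, 697 and 628 CPM with overexpression, against 412, 210 and 191 CPM in its control, and at 439, 359 and 608 CPM in the knockdown, against 267, 289 and 217 CPM in its control. All overexpression and knockdown libraries lay above all libraries of their own controls. On that sum MAT2A was called higher in both, 2.48-fold with overexpression (log2 fold change 1.31, SE 0.28, adjusted p = 0.00791) and 1.82-fold in the knockdown (0.86, SE 0.27, adjusted p = 0.0345, edgeR). The difference of the arms was 0.45 (SE 0.38, adjusted p = 0.396). In the edgeR fit of all 12 libraries, which rows are counted as MAT2A therefore decides whether it is called. On the Ensembl transcripts alone, DESeq2 and limma on log2(FPKM + 1) called it with overexpression. Without overexpression control replicate 1, edgeR called it on them in both arms. The split of reads between Ensembl and assembled transcripts is itself an estimate. Assembled transcripts of the other members held at most 4.6% of their counts.

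The length implied by counts and FPKM was 3666 bases for the assembled transcript and 2949 for ENST00000306434, whose annotated length is 2819. Such values ran above the annotated length for the other members too, as at 2726 against 2605 for ENST00000398165 of CBS. The value of 3666 may therefore be too high in the same way. The exons of the assembled transcript are not given in the table, so what it contains was not tested. As background, in human cells the methyltransferase METTL16 acts on short hairpins in the 3′ UTR of MAT2A RNA. Those hairpins share the letters TACAGAGAA, a motif chosen here after the MAT2A values were seen. ENST00000306434, which held 99.22% of the Ensembl counts of MAT2A, has 5 copies, all in its 3′ UTR, shown with the motif in capitals in windows of 30 bases (GENCODE 29 transcript, GRCh38, plus strand). One copy or more is found in 2.13% of 82237 transcripts, and as many as 5 in 2 of them.
MAT2A site 1, chr2:85543802-85543831: tggcgtaggcTACAGAGAAgccttcaagct
MAT2A site 2, chr2:85544589-85544618: tgtgatgtcaTACAGAGAAgtcacagggca
MAT2A site 3, chr2:85544774-85544803: ctggtgtagcTACAGAGAAaccagcttcct
MAT2A site 4, chr2:85544889-85544918: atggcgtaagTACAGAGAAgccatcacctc
MAT2A site 5, chr2:85545112-85545141: gctggtgtggTACAGAGAAgccagcttgtt

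METTL16 was itself 1.65-fold higher with overexpression, at 102, 127 and 116 CPM, against 59.6, 70.4 and 79.5 CPM in its control (log2 fold change 0.72, SE 0.12, adjusted p = 0.00472, edgeR). In the knockdown it was at 92.7, 84.3 and 99.2 CPM, against 98.7, 99.3 and 104 CPM in its control (adjusted p = 0.466). Any part of METTL16 in the MAT2A values was not tested.

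MAT2B (chr5:163503114-163519336, plus strand) encodes the regulatory subunit that binds MAT2A. It stood at 51.5, 49.5 and 47.7 CPM with overexpression, against 62.8, 56.1 and 60.4 CPM in its control, and at 40.0, 56.3 and 37.1 CPM in the knockdown, against 46.7, 57.0 and 50 CPM in its control. The overexpression libraries lay below their controls without overlap, and knockdown replicate 2 lay well above the other knockdown libraries. Neither log2 fold change passed (-0.27, SE 0.15, adjusted p = 0.231, and -0.21, SE 0.15, adjusted p = 0.343, edgeR). Without knockdown replicate 2 that in the knockdown was -0.41 and passed (adjusted p = 0.0185).

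AHCY (chr20:34280268-34311802, minus strand) encodes the hydrolase that splits S-adenosylhomocysteine, the product of every SAM-dependent methylation, into homocysteine and adenosine. It stood at 212, 228 and 244 CPM with overexpression, against 248, 260 and 246 CPM in its control (log2 fold change -0.14, SE 0.20, adjusted p = 0.659). In the knockdown it was at 360, 183 and 345 CPM, against 305, 301 and 293 CPM in its control (-0.02, SE 0.20, adjusted p = 0.961, edgeR). Knockdown replicate 2 was alone below the controls and the other 2 knockdown libraries were above them. Without it the log2 fold change in the knockdown was 0.23 (adjusted p = 0.0585).

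AHCYL1 (chr1:109984686-110023741, plus strand) encodes a protein built like AHCY without its hydrolase activity, known for binding the inositol trisphosphate receptor. It stood at 206, 210 and 218 CPM with overexpression, against 259, 260 and 271 CPM in its control. The groups were tight and far from overlapping. AHCYL1 fell 1.25-fold to 211 ± 6.19 CPM with overexpression, against 263 ± 6.33 CPM in its control (log2 fold change -0.32, SE 0.08, adjusted p = 0.0221, edgeR). The call ended without any one of overexpression replicates 1, 2 and 3 (adjusted p = 0.0749, 0.0841 and 0.074) or of control replicates 2 and 3 (0.0639 and 0.0795). In the knockdown it was at 185, 167 and 170 CPM, against 200, 196 and 194 CPM in its control, again without overlap, as for 40.9% of all genes and 5 of the 9 members, and it did not pass (log2 fold change -0.17, SE 0.08, adjusted p = 0.138). Between the controls AHCYL1 was 1.34-fold higher in the overexpression control (adjusted p = 0.00307, edgeR).

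MTR (chr1:236795281-236903981, plus strand), the cobalamin-dependent methionine synthase that methylates homocysteine back to methionine, was the steadiest of the 9 genes. It stood at 124, 108 and 117 CPM with overexpression, against 127, 110 and 102 CPM in its control, and at 137, 122 and 121 CPM in the knockdown, against 117, 120 and 112 CPM in its control. The log2 fold changes were 0.04 (SE 0.11, adjusted p = 0.809) and 0.12 (SE 0.11, adjusted p = 0.44, edgeR), and neither passed. All MTR libraries of the knockdown lay above those of its control, where 40.9% of all genes had groups without overlap. MTRR (chr5:7851186-7906025, plus strand) encodes the reductase that reactivates MTR. It stood at 48.6, 50.3 and 48.5 CPM with overexpression, against 58.2, 40.2 and 38.3 CPM in its control (log2 fold change 0.11, SE 0.16, adjusted p = 0.658). The control replicate 1 lay above and the other 2 controls below all overexpression libraries. In the knockdown MTRR was at 37.6, 42.6 and 48.5 CPM, against 51.1, 51.7 and 50 CPM in its control, again without overlap (-0.25, SE 0.16, adjusted p = 0.265, edgeR). Without overexpression control replicate 1 the difference of the arms was 0.57 and passed (adjusted p = 0.0195), against 0.36 (0.252) with it. FASTKD3 overlaps exons of MTRR on the opposite strand at 1.35 to 6.03 FPKM.

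**Figure D4:**
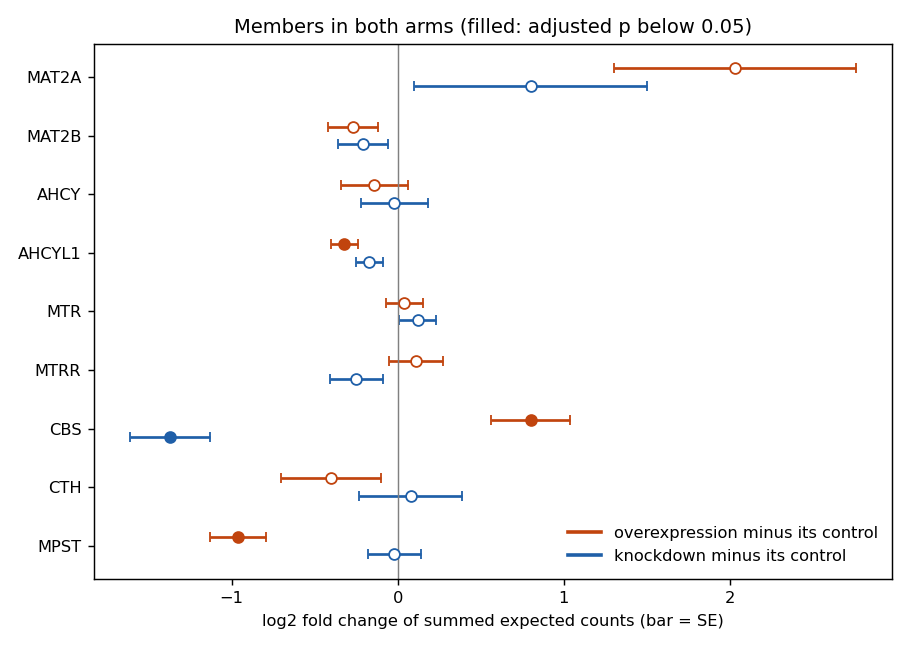
Log2 fold change of each of the 9 enzymes in the overexpression and the knockdown arm, with bars of 1 SE and filled points where the adjusted p was below 0.05 (edgeR). CBS is the only gene with filled points in both arms, at 0.80 and -1.37, and MAT2A has the widest bars.

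The genes whose CPM followed CBS most closely were taken from 8500 genes with a mean of at least 5 FPKM, by Pearson's correlation of log2(CPM + 1) over the 12 libraries. They were CDC42EP1, an effector of the GTPase CDC42 (r = 0.977), the methionyl-tRNA synthetase MARS (0.971), SUPT20H, a subunit of the SAGA complex (0.964), the serine synthesis enzyme PHGDH (0.964) and RAB11FIP2, which acts in endosome recycling (0.96). PHGDH, for instance, stood at 116, 117 and 142 CPM with overexpression, against 98.9, 83.6 and 73.4 CPM in its control, and at 91.2, 118 and 72.8 CPM in the knockdown, against 190, 185 and 187 CPM in its control. As with CBS, the knockdown controls were the highest libraries. None of the other members was close, with r of 0.51 for MTRR, 0.26 for MAT2A and -0.63 for CTH at the ends. These correlations describe 12 libraries in 4 groups, and much of each is the gap between the groups.

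The neighbouring reactions were read from 4 lists of 34 genes, of which 29 were tested. Among these 29, 3 were called higher and 4 lower with overexpression, and 5 higher and 3 lower in the knockdown, against 9.87% higher and 8.2% lower, and 12.4% higher and 11.5% lower, of all genes. Of the remaining genes of the methionine cycle, MAT1A, BHMT, BHMT2 and GNMT, known from liver, were too low to be tested, and none of the other 4 was called in either arm. MMADHC, which processes cobalamin, had log2 fold changes of 0.22 (adjusted p = 0.184) with overexpression and -0.19 (0.23) in the knockdown. AHCYL2, a further relative of AHCY, had -0.49 (0.4) and 0.21 (0.735, edgeR).

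The methionine salvage and polyamine list had 0 of 8 genes called with overexpression, where 18.1% of all genes were. Its most abundant genes there were the spermine synthase SMS, at a log2 fold change of -0.15 (adjusted p = 0.473), and AMD1, which decarboxylates SAM for polyamine synthesis, at 0.51 (0.145). In the knockdown 1 rose and 2 fell, where 12.4% and 11.5% of all genes did. MTAP, the phosphorylase that starts salvage, was at 12.9, 17.5 and 14.9 CPM in the knockdown, against 7.39, 10 and 8.72 CPM in its control (log2 fold change 0.79, adjusted p = 0.0159, and up to 0.0736 without knockdown control replicate 1 or 3). ENOPH1, a later enzyme of the route, was lower, with a log2 fold change of -0.46 (adjusted p = 0.0203, and up to 0.0682 without any one of the knockdown controls). AMD1 fell by 0.71 (adjusted p = 0.0479), a call that ended without any one of 9 libraries, all but overexpression control replicates 1 and 2 and knockdown replicate 3, with adjusted p up to 0.18, and also in a fit of these 2 groups alone (0.0906), with no filter on low values (0.0554) and with edgeR's own filter (0.0505).

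Among 10 genes of cysteine and sulfide oxidation, 1 rose and 3 fell with overexpression, where 9.87% and 8.2% of all genes did. The list median was -0.46 on the log2 scale against -0.03 for all genes. ETHE1, which oxidises persulfide in mitochondria, was at 20.7, 15.3 and 17.8 CPM with overexpression, against 29.6, 40.6 and 36.2 CPM in its control (1.98-fold lower, adjusted p = 0.00826). It was lower along with TST and MPST, and in each of the 3 genes no library overlapped, as for 43.5% of all genes. Exons of TST and MPST overlap on opposite strands, and the part of shared reads was not tested. KYAT1, a lyase of cysteine conjugates, fell by 1.53 (adjusted p = 0.0306), but control replicate 1 at 3.94 CPM lay among the overexpression libraries and far from the other controls at 13.9 and 15.8 CPM. Without control replicate 1 it was -1.94 (adjusted p = 0.00112). Its call ended without any one of overexpression replicates 1 to 3 or control replicates 2 and 3, with adjusted p up to 0.113, and in a fit of these 2 groups alone (0.0815). ADO, which oxidises cysteamine, rose, with a log2 fold change of 0.50 (adjusted p = 0.0108, edgeR).

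In the knockdown 2 genes of that list rose and 1 fell, where 12.4% and 11.5% of all genes did. GOT1, the cytosolic aspartate aminotransferase, which also acts on cysteine sulfinate, was at 35.1, 44.8 and 27.7 CPM in the knockdown, against 120, 117 and 138 CPM in its control (3.48-fold lower, log2 fold change -1.80, SE 0.21, adjusted p = 0.000382). It was called lower beside CBS in the same libraries, and with overexpression it was not called (-0.23, adjusted p = 0.448). The sulfite oxidase SUOX rose by 0.58 beside TST (adjusted p = 0.0399), a call that ended without any one of 7 libraries, namely overexpression replicates 2 and 3, knockdown replicates 1 and 2 and the 3 knockdown controls, with adjusted p up to 0.136, and also in a fit of these 2 groups alone (0.0887) and with no filter on low values (0.0611, edgeR).

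Of 7 enzymes that use SAM, 2 rose and 1 fell with overexpression, where 9.87% and 8.2% of all genes did. In the knockdown 2 of them rose, where 12.4% of all genes did. NNMT, which spends SAM on nicotinamide, was at 178, 174 and 192 CPM with overexpression, against 102, 113 and 91.0 CPM in its control, and at 170, 109 and 162 CPM in the knockdown, against 72.7, 77.6 and 63.6 CPM in its control. It was higher in both arms without overlap (log2 fold changes 0.83 and 1.04, adjusted p = 0.00781 and 0.00146), and the arms did not differ by a called amount (-0.22, 0.509). GAMT, which methylates guanidinoacetate to creatine, was at 10.9, 11 and 12.4 CPM with overexpression, against 20.1, 24.7 and 24.5 CPM in its control, and at 25.5, 23 and 24.4 CPM in the knockdown, against 16.0, 13.9 and 11.2 CPM in its control. It fell 2.02-fold with overexpression and rose 1.77-fold in the knockdown (adjusted p = 0.00297 and 0.00403), and the arms differed by -1.84 (0.00043, edgeR).

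**Figure D5:**
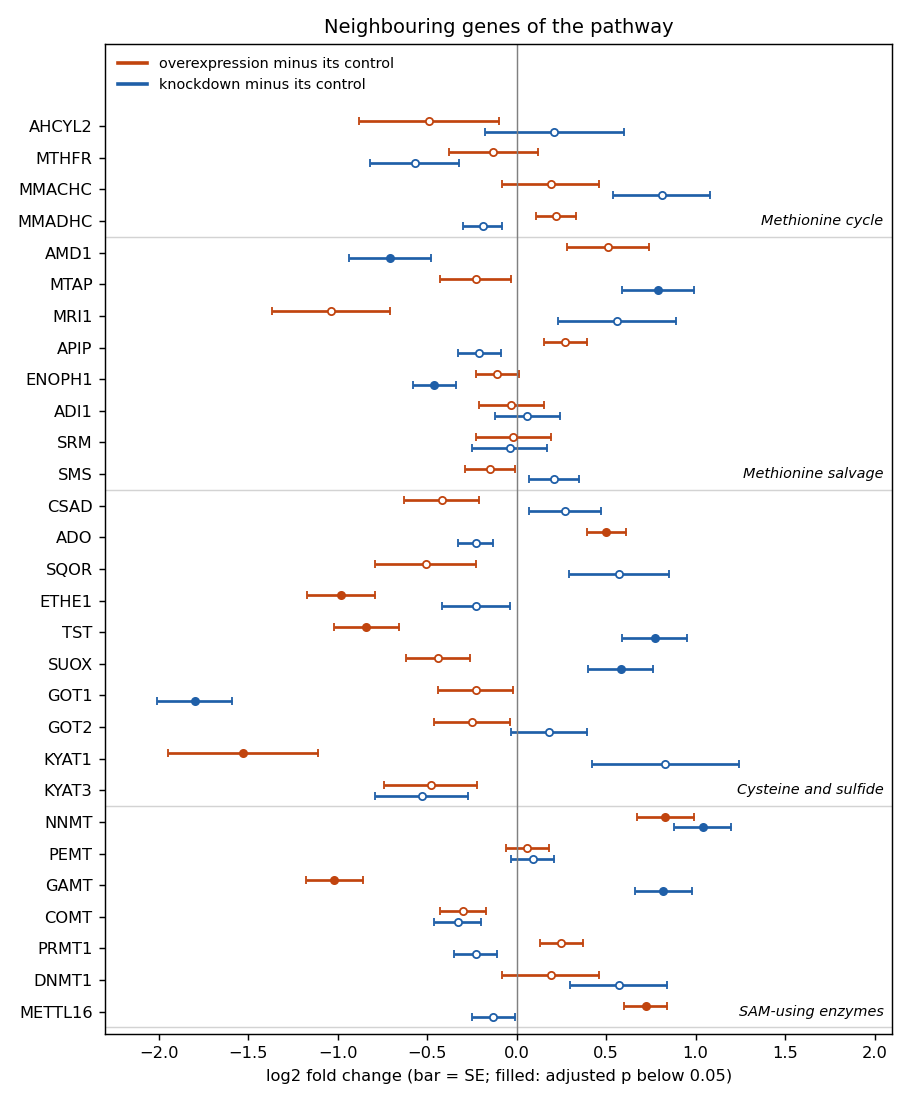
Log2 fold change in each arm of the 29 tested genes of 4 neighbouring lists, with bars of 1 SE and filled points where the adjusted p was below 0.05 (edgeR). GOT1 in the knockdown has the largest called change, at -1.80, and TST and GAMT have filled points of opposite sign in the arms.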

How the data were processed

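RNA abundance was read from a single deposited table for 12 libraries of A549 cells. Per the file headers, the authors deposited expected counts and FPKM per transcript and library. The submitters' processing notes name RSEM, StringTie 1.3.1, HISAT2 2.0.5, Bowtie2 2.2.8 and fastp. They also name mouse builds although the identifiers are human, so coordinates were taken from GENCODE 29 (GRCh38). Not given in the sources used here are the annotation release, filters and strand setting. RNA input was 3 µg a library, per the labels' protocols.

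Of 96247 transcripts in the table, 82270 carry Ensembl identifiers and were summed to 19647 genes, and 13977 assembled ones, with 13.3% to 15.4% of the counts, were kept apart. Of 219 symbols turned into dates, 184 were restored from the identifier. Libraries held 15049011 to 22797076 expected counts, at which 3 counts are 0.132 to 0.199 CPM; such a floor covers counting error only.

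Summed expected counts were rounded and fitted with edgeR 4.0.16 in R 4.3.3 (quasi-likelihood, robust, TMM), over the 11908 genes with at least 1 FPKM in at least 3 libraries. A single fit held 4 group means and no covariate, with 8 residual degrees of freedom and a biological coefficient of variation of 24.5%. Each arm was set against its own control, the arms against each other and the overexpression control against the knockdown control. Calls used an adjusted p under 0.05 (Benjamini-Hochberg). The SE is the size of the log2 fold change over the square root of F. The fit was tested on simulated data.

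The members, lists and tests were chosen with earlier results of these data known. Named are all members, NR0B1, CBSL, the called genes of each list (at most 4 per comparison by adjusted p, or the 2 most abundant where none was called) and the 5 genes most like CBS; SQOR, and values of list genes in comparisons where they were not called, were added after they were seen. Alternatives were DESeq2 1.42.0, limma 3.58.1 on log2(FPKM + 1) or log2(FPKM + 0.1), which understates changes of low genes, RLE scaling, other filters, a replicate block, fits within a comparison, assembled transcripts added, and libraries left out.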

Additional observations from a re-analysis of the deposited data

Results flagged for a closer look

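CBS is given here because its responses in the arms ran in opposite directions and differed by 2.18 on the log2 scale (SE 0.34, adjusted p = 0.00143, edgeR), with 0.80 for overexpression minus its control and -1.37 for the knockdown minus its control. The overexpression control itself differed from the knockdown control by -2.02, while CBS with overexpression lay within the range of the knockdown. The call with overexpression was lost in 9 of 22 alternatives, and 25.6% of all genes had a called difference of the arms. MPST is given because its responses, -0.96 with overexpression and -0.02 in the knockdown, differed by -0.93 (SE 0.23, adjusted p = 0.0141, edgeR).

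The assembled MAT2A transcript lies outside the gene sums on which the tests rest. It averaged 62.3 ± 2.3 FPKM with overexpression, against 43.7 ± 4.0 FPKM in its control, and 64.4 ± 17.4 FPKM in the knockdown, against 34.8 ± 4.91 FPKM in its control (SD, n = 3 each), above the control libraries in both arms.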

How the results depend on the processing

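Over 10 alternatives (9 for the difference of the arms) and the omission of each of 12 libraries, the 8 members other than CBS kept their direction and side of the threshold in 161 of 176 values for overexpression, 163 of 176 for the knockdown, 154 of 168 for the difference of the arms and 158 of 176 between the controls. The number of members called ran from 1 to 4 with overexpression, 1 to 2 in the knockdown, 2 to 4 for the difference and 2 to 6 between the controls when single libraries were left out. Without both overexpression control replicate 1 and knockdown replicate 2 it was 5, 4, 5 and 7, the list genes called were 13, 14 and 17 in the first 3 comparisons (7, 8 and 10 with all libraries), and the members' transcripts called were 6, 2, 4 and 6 (2, 1, 2 and 3 with all libraries). Over all 11908 genes tested the calls rose too, to 4462, 4493, 4590 and 5660 (2152, 2851, 3054 and 3973 with all libraries). Calls over all 27116 transcripts were not counted in that setting, so the rise in the members' transcripts is not a result about them. With all libraries 4.91%, 6.38%, 7.98% and 11.9% of all transcripts were called. With single libraries left out, calls over all genes ran from 821 to 3300 with overexpression and from 1503 to 3435 in the knockdown. For the difference they ran from 2127 to 3785, and between the controls from 2560 to 4920. In the knockdown 2 members were called by DESeq2 and 2 with assembled transcripts added, and DESeq2 called 2 transcripts there.

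The labels state no pairing by replicate number, and with 3 libraries a group the values cannot exclude one. Deviations of same-numbered libraries correlated at 0.25, 0.181 and 0.001 in the overexpression arm and at 0.033, -0.08 and -0.078 in the knockdown arm. In these arms 3 of 6 and 0 of 6 libraries correlated best with their own number. With the replicate number as a block, CBS stood at 0.83 with overexpression (adjusted p = 0.0531, edgeR), KYAT1 at -1.47 (0.0595), and 1 transcript was called there. CBS with overexpression ran from 0.63 to 1.07 when single libraries were left out.

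Uncalled values changed sign as follows when single libraries were left out, and the cause was not tested. With overexpression MTR ran from -0.03 to 0.14 and MTRR from 0 to 0.32. In the knockdown CTH ran from -0.15 to 0.28, AHCY from -0.18 to 0.23 and MPST from -0.20 to 0.10. For the difference of the arms MAT2B ran from -0.18 to 0.16, AHCY from -0.36 to 0.04 and MTR from -0.14 to 0.02. Between the controls MAT2A ran from -2.09 to 0.21 and MTR from -0.14 to 0.03. MAT2A was at -0.26 there with all libraries (adjusted p = 0.713, edgeR), but in 2 of 22 alternatives it kept its sign and was called. Without both libraries that stand apart AHCY was 0.24 in the knockdown (adjusted p = 0.0352) and -0.38 for the difference (0.0193, edgeR, with no change of sign), and MAT2B was 0.18 for the difference. MTR for the difference was 0.06 with limma at either pseudocount, and MAT2A between the controls was 0.07 with assembled transcripts added. The difference of the arms needs all 4 groups, so no fit within 1 comparison exists for it. CTH, at 2.28 to 8.39 CPM, is the member whose precision depth limits most, and a p that missed the threshold does not show that levels were alike.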

Other observations

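Among the neighbouring genes the arms also differed for SUOX (-1.01 on the log2 scale), ADO (0.73), METTL16 (0.85), AMD1 (1.22), MTAP (-1.03), MRI1 (-1.60), GOT1 (1.57) and KYAT1 (-2.36), beside GAMT (-1.84) and TST (-1.61), so that 4 of 29 list genes had a called difference above 0 and 6 below it, where 13.1% and 12.6% of all genes did. Between the control groups 8 of the 29 were called higher in the overexpression control and 6 lower, where 17.2% and 16.1% of all genes were. SQOR, the mitochondrial oxidase of sulfide, stood at 151, 139 and 138 CPM in the overexpression control and at 62.2, 57.7 and 59.6 CPM in the knockdown control, 1.25 apart in log2 (SE 0.28, adjusted p = 0.00676, edgeR). In the knockdown SQOR stood at 55.6, 145 and 67.0 CPM, with replicate 2 alone at the level of the overexpression controls, where it was likewise the library apart for AHCY. SQOR was chosen after its values were seen.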
